A study of Arabidopsis thaliana with 2 samples.

Results

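The ORGANELLE TRANSCRIPT PROCESSING (OTP) genes are nuclear genes for proteins that edit or splice transcripts made inside chloroplasts or mitochondria. They were taken as every locus whose annotated symbol is OTP and a number and which has a probe set naming no other gene, with the brightest probe set kept where there are several. This gave 8 of the 13356 loci named by single-gene probe sets: OTP43, OTP70, OTP80, OTP81, OTP84, OTP85, OTP86 and OTP87. Each had 1 probe set. OTP51 and OTP82, the other 2 of 10 OTP symbols in the RefSeq gene table, were not analysed here.

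RNA came from untreated Col-0 Arabidopsis seedlings, 7 days old, grown on medium with 1% sucrose, and was hybridised to 2 Affymetrix arrays, 1 per genotype. The double expressor carried AD-HIFCOOD and GBD-pVHL, fusions built from the animal oxygen-sensing proteins HIF and VHL. The triple expressor carried both of these and PHD3, an animal prolyl hydroxylase that needs oxygen to modify HIF, so the comparison asks what differs in sensor seedlings when PHD3 is added. Both genotypes hold both fusions, and no array of plants without them was used here. Plants were genotyped one by one by PCR before RNA was taken. The promoters of the transgenes, the number of independent lines and the number of seedlings per array are not stated in the labels.

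Plant organelles keep small genomes, and their primary transcripts need cytidine-to-uridine editing, intron removal and end trimming before they can be translated. Most of the proteins that choose the sites are pentatricopeptide repeat (PPR) proteins, a large plant family whose repeats each recognise about one base of RNA. OTP proteins were found through mutants with defects at single editing sites or introns, and each therefore serves only a few transcripts. In chloroplasts many of these belong to the NADH dehydrogenase-like (NDH) complex, to ribosomes or to the plastid RNA polymerase, and in mitochondria many encode subunits of respiratory complex I.

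Levels are log2 signals made with RMA, a method that puts arrays on a common distribution and sums up each probe set. Differences are triple minus double throughout, so a negative value means a lower signal with PHD3, and a value of 1 is 2-fold. With 1 array per genotype there is no replicate spread, and no test or p-value is given. A floor of 5.71, the 40th percentile of all values, marks dim signals, and a gene is called above it when its brighter array reaches it. Among 146 loci with several probe sets, the triple minus double difference of a single probe set had an SD of 0.20 between probe sets of one locus. That figure holds no variation between plants, RNA or labelling. The median differences of all gene probe sets and of all 13356 loci were 0.0 and -0.0034. The green tissue marker RCA, at 13.72 and 13.83, and the root marker PYK10, at 12.86 and 13.02 without and with PHD3, were well above the floor on both arrays. Of 18 such markers, of green tissue and root together, 7 had a named probe set. In the triple expressor 6 of the 7 were higher, where 47.9% of all loci were higher, and their median was 0.11. The root hair expansin genes EXPA7 and EXPA18 showed the largest differences among them, 0.46 and 0.40, though EXPA7 was close to the floor without PHD3, at 5.75. The part of tissue makeup in the OTP differences was not tested.

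The OTP genes were mostly slightly lower in the triple expressor. Lower values were found for 7 of the 8, where 50.2% of all loci were lower by any amount, and OTP85 alone was higher. The median of the 8 differences was -0.20 and their range was -0.65 to 0.16. None was 2-fold apart, as were 0.201% of probe sets above the floor in the higher and 0.0576% in the lower direction. OTP87 was the only one past 1.5-fold, in the lower direction, where 0.547% of the 13896 probe sets above the floor lay. OTP87 counted as above the floor only through the double expressor array, on which it was brighter, so this share is background only. With 32 added to the unlogged values, which damps dim signals, its difference was -0.37 and no longer past 1.5-fold. The group was selected on these same triple minus double differences, in a scan of gene families, so its counts and median describe the 2 arrays and support nothing further. In whole seedlings, fewer cells of a type and less RNA per cell cannot be told apart.

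**Figure D1:**
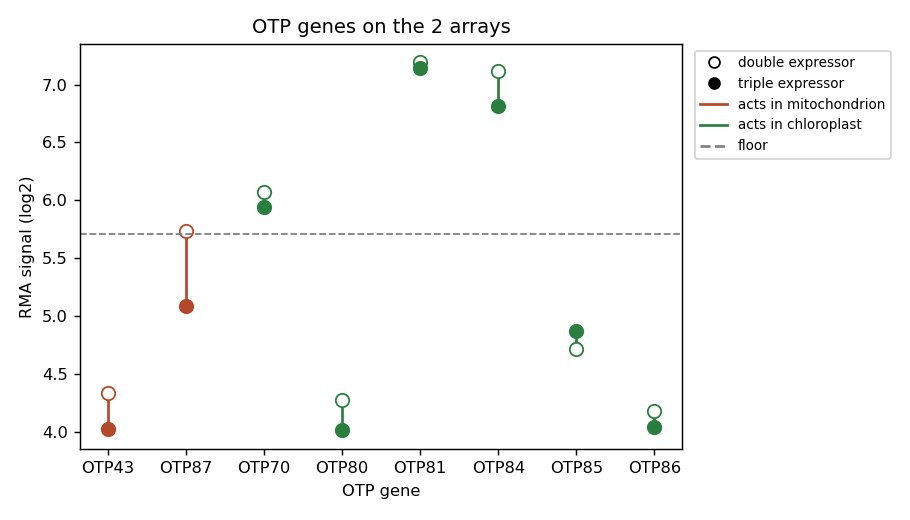
RMA signal (log2) of each OTP gene in the double expressor (open circles) and the triple expressor (filled circles), 1 array each, with mitochondrial proteins in red-brown, chloroplast proteins in green and the floor of 5.71 dashed. The filled circle lies below the open one for 7 genes and above it for OTP85, and 4 of the 8 genes stay under the floor on both arrays.

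Both genes with mitochondrial proteins were lower in the triple expressor. OTP87 (AT1G74600) encodes a protein needed to edit transcripts of nad7, a complex I subunit, and atp1, a subunit of ATP synthase. It was at 5.73 without PHD3 and 5.08 with it, a difference of -0.65 or 1.57-fold. Its double value lay just above the floor and its triple value below it. Of 1105 gene probe sets whose mean level was within 0.25 of that of OTP87, 9 (0.814%) had a difference as low, and 2.44% were as far from 0 in either direction. OTP87 was also the only OTP gene whose difference was more than 2 times the SD between probe sets of a locus. That SD pools all signal levels, and the percentile-based spread of differences among the 1105 probe sets was wider, 0.28. The genes were selected on these same differences, so the shares and the SD describe OTP87 and support nothing further. OTP43 (AT1G74900) encodes a protein needed for splicing the first intron of nad1, another complex I subunit, whose pieces are transcribed apart. It was at 4.33 without PHD3 and 4.03 with it, under the floor on both. Its difference of -0.31 was not rare at that level, where 13.2% of 1420 probe sets were as low.

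The 6 genes with chloroplast proteins had a median of -0.14. That of the 2 mitochondrial ones was -0.48, a value that rests on 2 genes, one of them under the floor, and was -0.24 with 32 added to the unlogged values. OTP84 (AT3G57430) serves editing sites in transcripts of the NDH genes ndhB and ndhF and of psbZ, a small photosystem II protein. It was at 7.12 without PHD3 and 6.81 with it, well above the floor. Its difference of -0.30 was nearly that of OTP43, and 5.83% of 1851 probe sets at its level were as low. The order of these 2 genes turned under lowess centring, which gave -0.32 for OTP84 and -0.28 for OTP43, and with 32 added, which gave -0.24 and -0.11. OTP85 (AT2G02980), which serves an editing site of ndhD, went the other way. It was at 4.71 without PHD3 and 4.87 with it, both under the floor, and 28.2% of probe sets at that level were as high. The 2 measured OTP genes that serve NDH transcripts thus differed in opposite directions.

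The other editing proteins of the chloroplast group serve transcripts of ribosomal proteins. OTP80 (AT5G59200), for an rpl23 site, was at 4.27 without PHD3 and 4.01 with it. OTP86 (AT3G63370), for an rps14 site, was at 4.18 and 4.04. OTP81 (AT2G29760), for a site in an intron of rps12, was at 7.19 and 7.15. The differences of -0.26, -0.14 and -0.05 were matched or exceeded downward by 15.4%, 33.0% and 36.9% of probe sets at the same levels, and OTP80 and OTP86 lay under the floor. OTP70 (AT4G25270), required for splicing the intron of rpoC1 in the plastid RNA polymerase, was at 6.07 without PHD3 and 5.94 with it. Its difference of -0.13 was reached downward by 26.3% of probe sets at that level. By kind of action, the 6 editing genes had a median of -0.20 and the 2 splicing genes, OTP43 and OTP70, one of -0.22. Of these, 3 editing genes and 1 splicing gene were under the floor, so the 2 medians say little about kind of action.

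**Figure D2:**
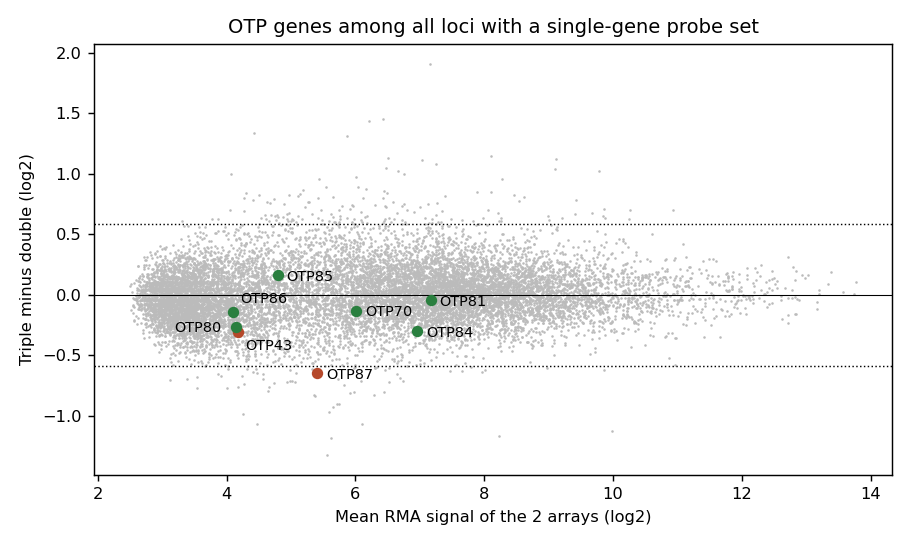
Triple minus double (log2) against the mean signal of the 2 arrays (log2) for all 13356 loci with a single-gene probe set in grey, with the OTP genes in red-brown (mitochondrion) or green (chloroplast) and 1.5-fold as dotted lines. OTP87 lies at the lower edge of the grey cloud beyond the dotted line, and the other 7 lie within the cloud.

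The transcripts on which OTP proteins act were also on the arrays, though a probe set does not read whether a transcript was edited or spliced. How well its signal follows the amount of an organelle transcript was not tested. Of the plastid transcripts listed as OTP targets, 7 had a single-gene probe set, 5 were lower in the triple expressor, and the median was -0.21. Among all 69 plastid-encoded genes measured, 60.9% were lower and the median was -0.05. The largest difference was that of rpoC1, the target of OTP70, which was at 8.99 without PHD3 and 8.43 with it, or -0.56. Of probe sets at its level 0.303% were as low, whereas OTP70 itself differed by -0.13. The OTP84 target psbZ was at 11.08 and 10.76, a difference of -0.32 beside the -0.30 of OTP84. Plastid genes not listed as targets were as low as psbZ, among them psbC (-0.35), rpoC2 (-0.34) and psbA (-0.52), while 26 of the 69 were higher. The lowest of the 69 was rpoC1. Whether targets differed from other plastid genes was not tested. The other measured target of OTP84, ndhF, was under the floor at 3.55 and 3.62. No value is given for ndhB, which OTP84 also serves.

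The remaining OTP genes and their targets differed in the same direction in some pairs and in opposite directions in others. The transcript of ndhD was at 11.53 without PHD3 and 11.32 with it, a difference of -0.21, while OTP85 was higher. The OTP86 target rps14 lay under the floor at 4.36 and 4.25. The plastid genome holds rpl23, and part of rps12, in a repeated stretch, and their probe sets list 2 gene identifiers of the same symbol, so they were kept out of the 7 and are given as signals of both entries together. The rpl23 probe set was at 12.78 and 12.85, slightly higher by 0.07, while OTP80 was lower. The 2 rps12 probe sets were lower by similar amounts, -0.18 and -0.20, beside -0.05 for OTP81. Transcripts of ycf3 and ndhG, served by OTP51 and OTP82, differed by -0.30 and 0.09. The 10 plastid NDH subunits measured were split, 4 lower and 6 higher, with a median of 0.08.

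The mitochondrial targets were too dim to describe. The nad7 probe set was at 3.80 without PHD3 and 3.52 with it, and 14.4% of probe sets at that level were as low as its -0.28. For nad1, 7 single-gene probe sets all lay under the floor, 5 higher and 2 lower, between -0.24 and 0.50. The brightest of them was at 5.37 and 5.70, higher by 0.32 beside the lower OTP43. The annotation names atp1 only in a probe set shared with a second gene, so no value is given. Only mitochondrion-encoded genes with nad, cox, ccb, matR or orfX symbols were taken, which gave 16 genes. Of these, 9 were lower and 7 higher, where 50.2% of all loci were lower. Their median was -0.04, and 11 of the 16 were under the floor. The lowest was orfX, a transporter-like reading frame, at 6.29 and 5.70, and the highest was nad4L, a complex I subunit, at 3.58 and 3.95. Among the others above the floor, nad4 differed by -0.12, ccb382 by -0.10, ccb452 by -0.04 and cox1 by 0.00089.

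**Figure D3:**
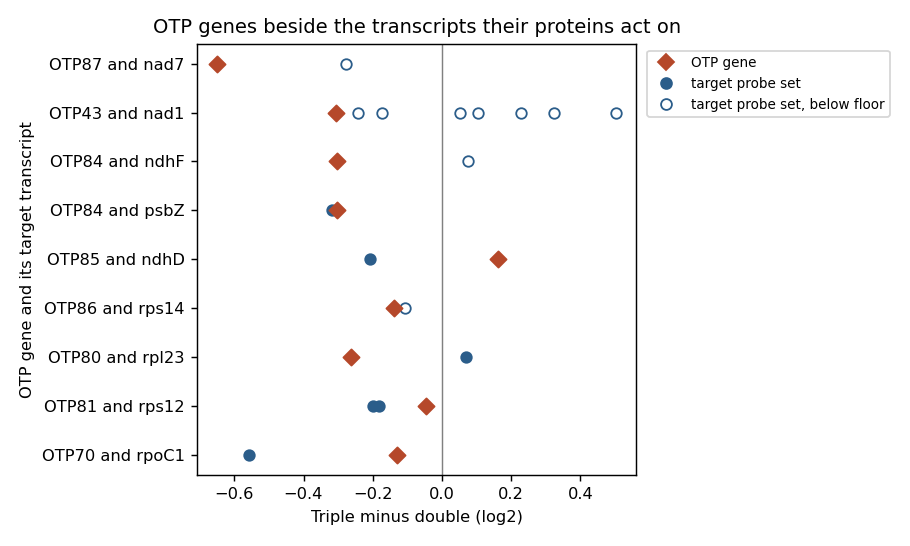
Triple minus double (log2) of each OTP gene (diamonds) and of the probe sets of a transcript its protein acts on (circles, open where both arrays are under the floor). The diamond and circle nearly coincide for OTP84 with psbZ and OTP86 with rps14, lie on opposite sides of 0 for OTP84 with ndhF, OTP85 with ndhD and OTP80 with rpl23, and stand apart on the same side for OTP87 with nad7, OTP81 with rps12 and OTP70 (-0.13) with rpoC1 (-0.56). The nad1 circles spread to both sides.

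Other nuclear genes for chloroplast RNA processing went both ways. Of 55 symbols listed 6 had a named probe set, all above the floor, of which 4 were lower and 2 higher with a median of -0.15, where 50.2% of all loci were lower. CRR22, a PPR editing protein for NDH and RNA polymerase transcripts, was at 6.80 without PHD3 and 6.36 with it. Its difference of -0.44 was the largest of these 6, and 2.72% of probe sets at its level were as low. LPA66, a PPR protein that edits psbF of photosystem II, was at 7.07 and 6.75, a difference of -0.32. CRR28, which edits NDH transcripts, differed by -0.20, whereas CRR21, which edits ndhD, was level at 8.12 and 8.14. The intron-splicing proteins CFM3A and CFM3B, which are not PPR proteins, differed by -0.09 and 0.05. Editing proteins for NDH transcripts, OTP84, OTP85, CRR21, CRR22 and CRR28, therefore ranged from -0.44 to 0.16.

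**Figure D4:**
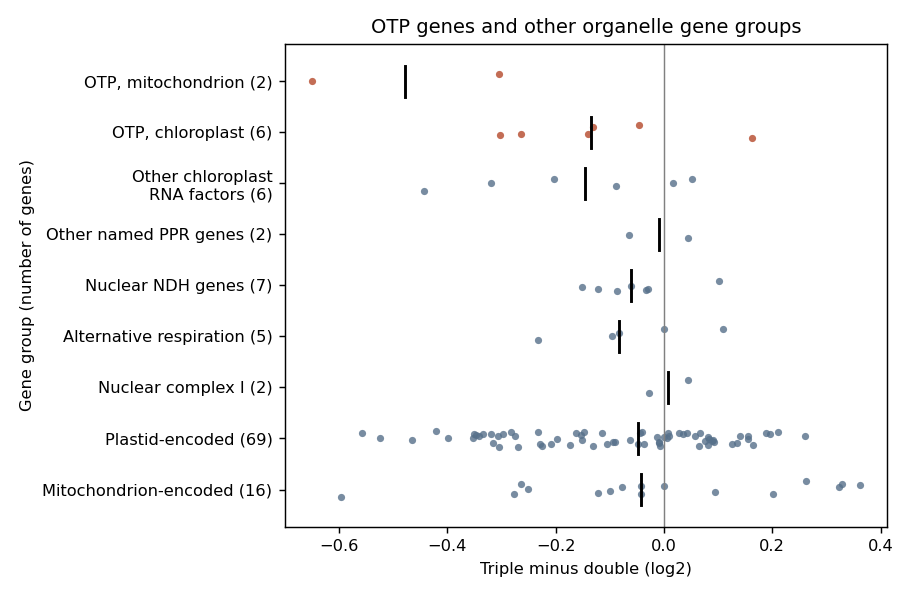
Triple minus double (log2) of single genes (points, shifted vertically at random) in the OTP groups and in other groups of organelle genes, with the number of genes in brackets and the median as a black bar. The bars lie at -0.48 for the mitochondrial OTP genes, -0.14 for the chloroplast OTP genes and -0.15 for other chloroplast RNA factors, and the points of the chloroplast OTP genes overlap those of the other chloroplast RNA factors.

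Values of further genes of the same organelle pathways are given for comparison, and whether they differed from the OTP genes was not tested. PPR336 and PPR596, mitochondrial proteins and the only other loci measured that the gene table names as PPR, were at 8.22 and 8.26 and at 8.99 and 8.93. Likeness of pattern to OTP87 is not given, since 2 arrays leave a single difference per gene. PPR336, the only named member of 77 symbols listed for mitochondrial RNA processing, differed by 0.04. None of 39 symbols listed for organelle RNA polymerases and sigma factors had a named probe set. Of 46 symbols listed for the chloroplast NDH complex and related electron flow, 7 had a named probe set. One of them, PGRL1B, is not an NDH subunit or helper. Of the 7, 6 were lower, where 50.2% of all loci were lower, all by small amounts. The median was -0.06, which was the value of PGRL1B. Even for NdhN, the lowest, 16.9% of probe sets at its level were as low. The largest differences were -0.15 for the subunit gene NdhN, -0.12 for the assembly gene CRR42, 0.10 for the assembly gene CRR41 and -0.09 for NdhL. Nuclear complex I genes FRO1 and GLDH, the latter also the last enzyme of vitamin C synthesis, differed by -0.03 and 0.04. Of the alternative NAD(P)H dehydrogenases, which bypass complex I, NDC1 differed by -0.23, NDB1 by 0.11, and NDB2 was equal on both arrays at 8.40. NDB3 and NDB4 were under the floor. The alternative oxidase genes were not analysed here.

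OTP87 and OTP43 lie near each other on chromosome 1, with 18 named loci between them, and the loci around them were close to 0 on balance. Those 18 loci had a median of -0.0019, with 9 lower, 8 higher and 1 equal. Among the 10 named loci on each side of OTP87 the median was 0.01, the range was -0.36 to 0.31, and none of the 20 was as low as OTP87. Among the 20 around OTP43 the median was 0.03, and none was as low, though AT1G74820 at -0.30 came close to it. The only one past 1.5-fold there was ORA47, a jasmonate-related transcription factor gene, at 5.60 without PHD3 and 6.49 with it, a higher value. For the other 6 OTP genes, which lie on chromosomes 2 to 5, the medians of the 15 to 20 neighbouring loci ran from -0.04 to 0.01.

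**Figure D5:**
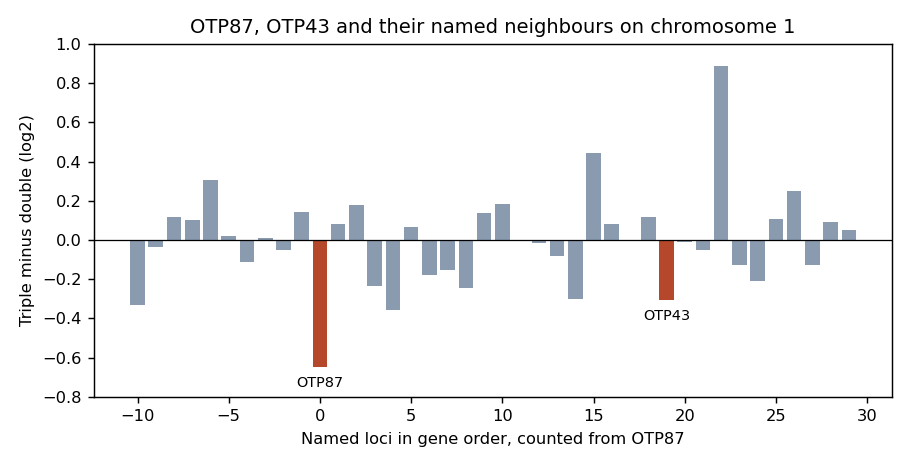
Triple minus double (log2) of OTP87, OTP43 (red-brown bars) and the named loci around them on chromosome 1 (grey-blue bars), in gene order counted from OTP87. OTP87 at -0.65 is the lowest bar, OTP43 at -0.31 is close to a few other low bars, and the bars between them lie on both sides of 0.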

How the data were processed

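The authors deposited RMA signals for 22810 probe sets on each array, as log2 values, and the submitters' processing notes name RMA without version or software. The log2 scale was read from the range, 2.39 to 14.33. RMA hides any change shared by most genes. After removing 64 control probe sets, 13513 of 22746 named 1 gene in the platform annotation, 503 several and 8730 none. Symbols were updated by gene identifier through RefSeq (TAIR10.1). Mitochondrial genes were named by the platform annotation alone, and their group held only nad, cox, ccb, matR and orfX symbols. Groups came from the sample titles. Members, gene lists and target organelles were chosen with earlier results of these data known. Named genes were all OTP genes, their targets, up to 4 per list by size, and the 3 PPR genes closest to OTP87 in signal, of which 2 were measured; this distance mixes probe brightness and is not reported. Members named beyond 4, orfX, nad4L, ORA47, neighbouring loci and the shared rpl23 and rps12 probe sets were chosen after values were seen. PPR genes were found by symbol and synonym, as the tables hold no descriptions. Counting past 2-fold was tested on simulated data, with larger shifts planted in probe sets well above the floor. That test does not bear on 1.5-fold differences near the floor, such as that of OTP87. Depth is not defined for arrays, and the number of arrays limits precision. Python 3.11.15, numpy 2.4.6, pandas 2.3.3, statsmodels 0.14.6 and matplotlib 3.10.9 were used.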

Additional observations from a re-analysis of the deposited data

How the results depend on the processing

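Alternatives were median centring of the arrays (a shift of -0.04), lowess centring (span 0.3), adding 32 to the unlogged values, averaging the probe sets of a locus, and, for medians, members above the floor. The list without OTP87 was added after seeing the data. No OTP gene could turn sign under these alternatives, since the centring shifts are smaller than the smallest difference and the other changes preserve order, so signs say nothing about stability. With 32 added, which by construction shrinks dim differences, OTP87 was at -0.37, under 1.5-fold, and the mitochondrial OTP median at -0.24. The OTP median ranged from -0.24 to -0.09 and was -0.14 without OTP87. Averaging per locus changes no OTP gene, since each has 1 probe set. Of 66 recomputed medians 3 turned sign or became 0: complex I, 0.0077, was -0.03 under median and -0.01 under lowess centring, and alternative respiration, -0.08, was 0.0 above the floor. Probe sets past 2-fold, 28 higher and 8 lower, were 9 and 3 with 32 added, 16 and 3 with a floor at the 60th percentile, and 212 and 76 at 1.5-fold, by construction. Signals under the floor limit what can be said of OTP43, OTP80, OTP85 and OTP86. Leaving out a replicate was not possible either. No paired analysis was possible because there is 1 array for either genotype.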
